A study of Mus musculus with 16 samples.

Results

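The ATF4 integrated stress response genes are 43 genes that encode the transcription factor ATF4, its partner and feedback factors and its target genes for amino acid synthesis, amino acid transport, tRNA charging and secreted signals. They were chosen by gene symbol, with earlier results of these data known, from the 55487 genes of the count table, and each of the 43 was found there. Of these, 37 passed the filter on low counts and were among the 14435 genes tested. The other 6 were Aldh1l2, Slc7a3, Vldlr, Stc2, Gdf15 and Fgf21. Ddit3 stood under a second identifier (ENSMUSG00000116429, at most 4.42 expected counts in a library), which was kept apart.

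The cells came from mouse leukaemia driven by the fusion CBFB::MYH11, also carried GFP, and were recovered from congenic recipients by sorting for GFP. Per the design text, all had received an shRNA against MYH11 that doxycycline switches on, whereas the control labels name only primary cells expressing the fusion. For 7 days mice drank sucrose water (5%), giving bone marrow control and spleen control, or the same with doxycycline (3 mg/ml), giving bone marrow doxycycline and spleen doxycycline, with 3 libraries in each group. Secondary disease, with 4 libraries, came from spleens of a separate cohort kept on doxycycline until signs of fatal disease. No group received doxycycline without the shRNA, so the drug and the knockdown cannot be told apart. Age and strain were not given in the sources used here. The titles number replicates without saying that each was a separate animal, so p-values measure only the spread between these samples.

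In the integrated stress response, kinases that sense amino acid shortage, misfolded protein, viral RNA or lack of haem phosphorylate the initiation factor eIF2. Bulk translation then falls while the messenger RNA of Atf4 is translated more, so the level of Atf4 RNA need not follow the activity of the protein. ATF4 joins C/EBP family partners on a composite site, the C/EBP-ATF response element, and switches on genes for amino acid supply and tRNA charging, together with factors such as CHOP (Ddit3) and TRIB3 that carry or damp the response. In erythroid precursors the haem-regulated kinase HRI (Eif2ak1) is known to feed this pathway and to match globin synthesis to haem.

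The composite site was looked for in RefSeq promoter windows (GRCm38.p6, 250 bases before to 50 after a gene's start), which were found for 35 of the 43 genes. The letters TGATGNAA, or TTNCATCA on the other strand, occurred in a window of 16 of these 35 genes (45.7%) and of 4.51% of the 27025 genes in the RefSeq table. The narrower form TGATGCAA, which lies within the first, occurred in 12 of the 35 genes and in 1.03% of all genes. Of the 13 genes that rose in bone marrow (below), 11 had a window and 6 of them a match. Of the 24 other genes with a window 10 had a match. These 10 include genes too low to test, such as Fgf21 and Vldlr. A match says only that these letters are present. The stretches below show where the site lies in 4 genes that rose in bone marrow (Asns, Nupr1, Aars, Pycr1) and in 4 that did not pass the test there (Chac1, Pck2, Slc7a11, Got1). Each is printed from 5′ to 3′ on the strand of the gene, with the site in capitals, and Slc7a11 holds it once in each orientation.
Asns, chr6:7693210-7693258, minus strand: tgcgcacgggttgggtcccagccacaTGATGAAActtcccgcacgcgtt
Nupr1, chr7:126625547-126625606, minus strand: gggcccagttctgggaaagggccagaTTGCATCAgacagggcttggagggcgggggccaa
Aars, chr8:111033704-111033763, plus strand: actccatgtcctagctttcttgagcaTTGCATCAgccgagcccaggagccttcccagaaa
Pycr1, chr11:120643818-120643877, minus strand: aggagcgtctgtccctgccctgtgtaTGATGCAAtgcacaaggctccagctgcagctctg
Chac1, chr2:119351023-119351082, plus strand: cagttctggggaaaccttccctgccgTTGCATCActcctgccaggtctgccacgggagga
Pck2, chr14:55540137-55540196, plus strand: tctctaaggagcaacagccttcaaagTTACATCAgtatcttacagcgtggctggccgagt
Slc7a11, chr3:50443627-50443705, minus strand: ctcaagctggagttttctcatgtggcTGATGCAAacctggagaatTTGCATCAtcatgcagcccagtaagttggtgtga
Got1, chr19:43524674-43524733, minus strand: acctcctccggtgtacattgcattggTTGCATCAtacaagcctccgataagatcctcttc

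Total expected counts per library ran from 12.26 M in secondary disease replicate 4 to 39.42 M in spleen control replicate 3. Mouse Myh11, the gene that corresponds to the targeted one, held between 0 and 9 expected counts in every library. Whether it counts reads of the fusion was not tested, so it checks no label. Levels are CPM, that is counts scaled to a common library total with TMM factors. Alas2, the first enzyme of haem synthesis in red cell precursors, marked the erythroid content of a library: 17.9, 12.3 and 49.7 CPM in the marrow of control mice, 628, 816 and 735 in that of doxycycline mice, 28.8, 53.3 and 46.1 in spleen control, 56.5, 1056 and 451 in spleen doxycycline and 39.6, 59.6, 73.8 and 19.4 in secondary disease. Spleen doxycycline thus held 1 library with Alas2 near the control level (replicate 1) and 2 with a high level (replicates 2 and 3). Kit, a receptor of leukaemic progenitors, measured between 54.1 and 270.0 CPM over the 16 libraries, the leucocyte gene Ptprc between 1.06 and 17.3 CPM, and Cd34 at most 0.897 CPM. The summed level of 9 progenitor markers was 553.8 CPM in spleen doxycycline replicate 2 and 983.2 CPM in secondary disease replicate 4, against 1948 to 2711 CPM in the other 14 libraries. Secondary disease replicate 4 also held 137.7 CPM of 8 macrophage markers, against 7.12 to 50.4 CPM elsewhere. In such bulk libraries fewer cells of a type and less RNA per cell cannot be told apart.

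In bone marrow, 7 days of doxycycline came with higher levels of some of these genes, mostly regulators and tRNA ligases, while Atf4 itself did not pass the test. With edgeR's quasi-likelihood test adjusted over all genes (Benjamini-Hochberg, called at an adjusted p under 0.05), 13 of the 37 tested genes rose, 0 fell and 24 did not pass. Among all genes tested 3.96% were called higher and 2.61% lower. The median log2 fold change was 0.65 over the 37 genes and −0.02 over all genes. In 24 of the 37 every doxycycline library lay above every control, and in 3 (Jdp2, Got1, Slc3a2) every one lay below, where 23.1% and 24.6% of all genes did so. By role, 6 of 10 regulators rose, 1 of 5 tested serine and one-carbon genes, 2 of 7 other amino acid enzymes, 4 of 11 tRNA genes and 0 of 4 tested transporters.

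**Figure D1:**
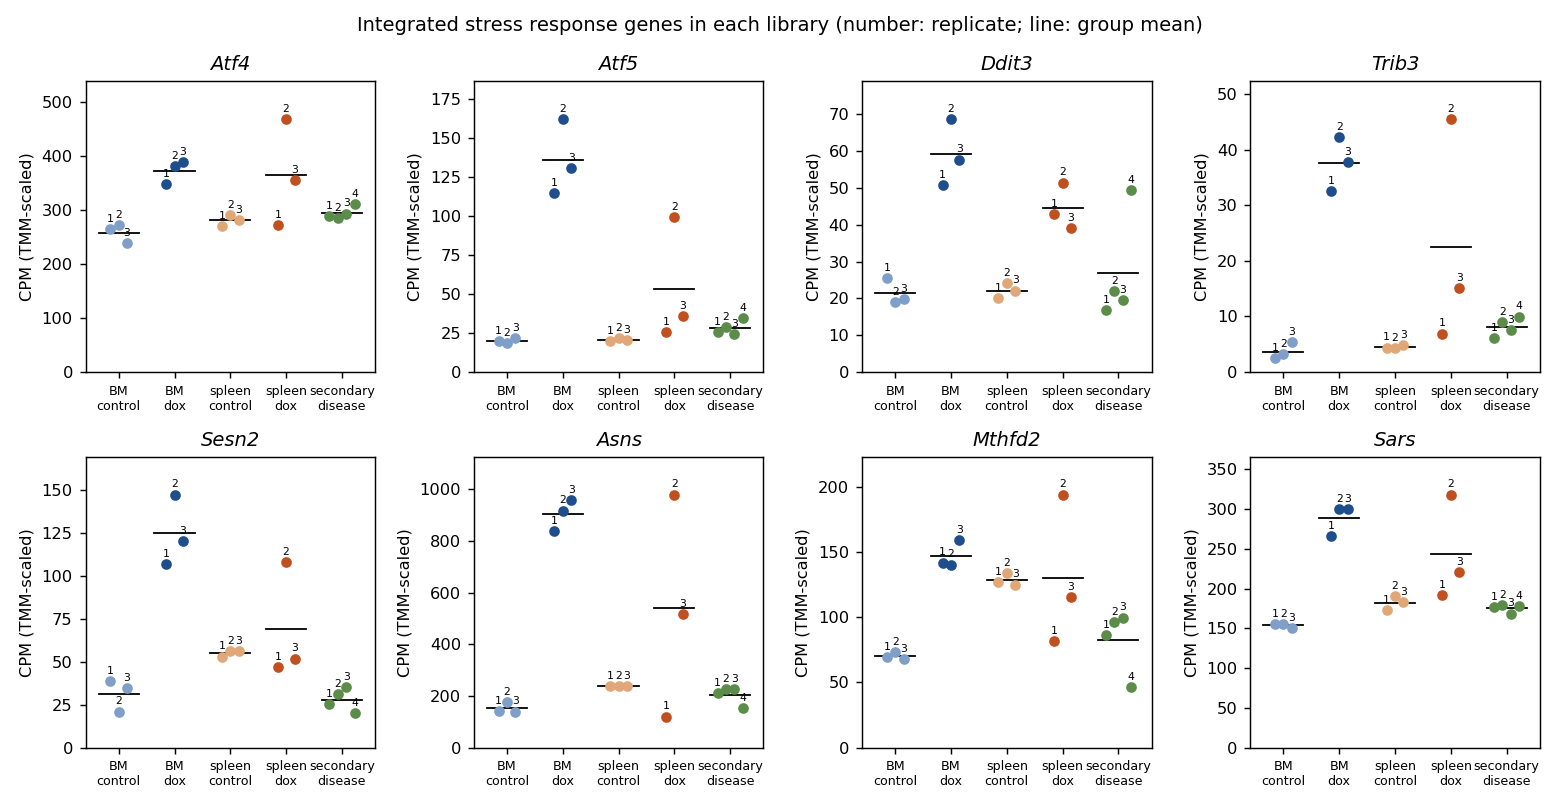
TMM-scaled CPM (y axis, linear, from 0) of 8 integrated stress response genes in each of the 16 libraries, by group (x axis, BM for bone marrow, dox for doxycycline), with replicate numbers above the points and the group mean as a line. For Atf5, Trib3, Sesn2 and Asns the 3 bone marrow doxycycline libraries lay together above both control groups, while the 3 spleen doxycycline libraries were spread out, with replicate 2 highest.

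Atf4 (ENSMUSG00000042406, chr15:80255184-80257541, plus strand), the effector of the response, measured 264, 271 and 238 CPM in the bone marrow controls and 347, 381 and 389 CPM with doxycycline. The groups did not overlap, but the difference did not pass the test (log2 fold change 0.53 ± 0.16, edgeR adjusted p = 0.0614). Atf5 (ENSMUSG00000038539, chr7:44812256-44816658, minus strand), a related factor translated under the same control, went from 19.6, 18.7 and 21.9 CPM to 115, 162 and 131 CPM. All 3 doxycycline libraries were far above the controls, and it rose (log2 fold change 2.76 ± 0.38, edgeR adjusted p = 0.00356). Ddit3 (ENSMUSG00000025408, chr10:127290774-127296288, plus strand) encodes CHOP, a factor linked to cell death under long stress. It had 25.5, 18.9 and 19.9 CPM in controls and 50.9, 68.7 and 57.7 CPM with doxycycline, and rose (log2 fold change 1.46 ± 0.32, edgeR adjusted p = 0.0192), with no overlap of the groups.

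Trib3 (ENSMUSG00000032715, chr2:152337422-152344032, minus strand), the pseudokinase that damps ATF4 and CHOP, had 2.45, 3.22 and 5.41 CPM in controls and 32.6, 42.3 and 37.8 CPM with doxycycline. Each doxycycline library was above each control, and the rise was among the larger of the called ones (log2 fold change 3.35 ± 0.53, edgeR adjusted p = 0.00552). Sesn2 (ENSMUSG00000028893, chr4:132492032-132510501, minus strand), a leucine sensor that restrains mTORC1, measured 38.9, 21.1 and 34.6 CPM against 107, 147 and 120.3 CPM. The controls varied among themselves but stayed below all 3 doxycycline libraries (log2 fold change 1.99 ± 0.32, edgeR adjusted p = 0.00552). Eif4ebp1 (ENSMUSG00000031490, chr8:27260329-27276674, plus strand), whose product holds back cap-dependent translation, had 102, 118 and 104 CPM and 152, 176 and 178 CPM. Its rise was the smallest of the 13 (log2 fold change 0.65 ± 0.12, edgeR adjusted p = 0.0111), and the groups were apart. Nupr1 (ENSMUSG00000030717, chr7:126623249-126630861, minus strand), a small stress-induced chromatin protein, was near the detection limit in controls, with 0.0408, 0.0357 and 0.170 CPM, or 1, 1 and 4 counts. The doxycycline libraries held 2.52, 2.43 and 2.21 CPM, or 59, 66 and 56 counts. Its log2 fold change of 4.80 ± 1.08 (edgeR adjusted p = 0.021) therefore rests on few control counts.

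Of the other regulators, Ddit4, an mTORC1 inhibitor, measured 53.9, 24.7 and 32.6 CPM in controls and 52.3, 75.4 and 56.7 CPM with doxycycline, with overlap. Cebpg, a C/EBP partner of ATF4, kept to a narrow range, 50.9 to 60.9 CPM over both groups (log2 fold change −0.07 ± 0.13, edgeR adjusted p = 0.824). Jdp2, a bZIP repressor, held at most 1.75 CPM in either group.

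Asns (ENSMUSG00000029752, chr6:7675169-7693254, minus strand), asparagine synthetase, whose promoter site is among those shown above, had the highest level per length of the 43 genes in bone marrow doxycycline. In TPM, which scales counts by transcript length and library total, it reached 591 ± 13.1 there (SD, n = 3), against 117 ± 12.4 in control, where the transporter chain gene Slc3a2 was highest at 350.1 ± 51.7 TPM. In CPM, Asns had 142, 176 and 139 in controls and 836, 917 and 956 with doxycycline. The 2 sets of 3 were widely separated (log2 fold change 2.57 ± 0.48, edgeR adjusted p = 0.0118). Pycr1 (ENSMUSG00000025140, chr11:120635712-120643769, minus strand), the last enzyme of mitochondrial proline synthesis, measured 7.02, 8.54 and 8.69 CPM and 20.3, 23.1 and 21.8 CPM. It rose (log2 fold change 1.43 ± 0.38, edgeR adjusted p = 0.0409), with no overlap. Mthfd2 (ENSMUSG00000005667, chr6:83305691-83325908, minus strand), a mitochondrial folate enzyme, had 69.5, 73.3 and 67.8 CPM and 142, 140.3 and 159 CPM. All 3 doxycycline libraries were higher (log2 fold change 1.07 ± 0.29, edgeR adjusted p = 0.0413).

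Other enzymes of amino acid supply lay above every control without passing. Chac1 (ENSMUSG00000027313, chr2:119351229-119354381, plus strand), which breaks down glutathione and is a target shared by ATF4 and CHOP, had 0.326, 0.143 and 0.383 CPM (4 to 9 counts) in controls and 3.71, 6.15 and 3.04 CPM with doxycycline. The groups were apart, and the spread at such low levels was wide (log2 fold change 3.91 ± 1.20, edgeR adjusted p = 0.0674). Cth, the cystathionine-cleaving enzyme, had a log2 fold change of 3.16 ± 1.09 (edgeR adjusted p = 0.0996) on 2 to 10 counts per control library. Pck2, mitochondrial PEP carboxykinase, was above the controls without passing (log2 fold change 0.90 ± 0.29, edgeR adjusted p = 0.0779). The same held for Aldh18a1, the first enzyme of proline synthesis (log2 fold change 0.87 ± 0.26, edgeR adjusted p = 0.0569), and Shmt2, mitochondrial serine hydroxymethyltransferase (log2 fold change 0.56 ± 0.21, edgeR adjusted p = 0.123). The 3 enzymes of serine synthesis did not share this pattern: log2 fold changes were −0.08 ± 0.18 for Phgdh, 0.07 ± 0.19 for Psat1 and −0.02 ± 0.26 for Psph, all with overlap of the groups.

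No transporter passed the test either. Slc3a2, the heavy chain shared by several amino acid exchangers, measured 479, 380.4 and 423 CPM in controls and 320.4, 363 and 376 CPM with doxycycline, lower in all 3 (log2 fold change −0.28 ± 0.29, edgeR adjusted p = 0.671). Its leucine-carrying partner Slc7a5 (log2 fold change 0.18 ± 0.28, edgeR adjusted p = 0.797) and the cationic transporter Slc7a1 (log2 fold change 0.18 ± 0.32, edgeR adjusted p = 0.822) overlapped with the controls. The cystine transporter gene Slc7a11, which holds the site in both orientations, had 3 to 12 counts in each bone marrow library. The folate enzyme gene Aldh1l2, the transporter gene Slc7a3 and the 4 genes of secreted or receptor proteins (Vldlr, Stc2, Gdf15, Fgf21) were too low to test. Fgf21 had 0 counts in all 16 libraries, which allows up to 3 counts in each, and Gdf15 at most 1.03 CPM in bone marrow.

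Of the 11 genes of tRNA charging and export, 4 rose by the test. In 9 of the 11 every doxycycline library lay above every control. Sars (ENSMUSG00000068739, chr3:108424865-108445209, minus strand), seryl-tRNA synthetase, measured 156, 155 and 151 CPM in controls and 267, 299.7 and 300.4 CPM with doxycycline and rose (log2 fold change 0.91 ± 0.15, edgeR adjusted p = 0.00684). Cars (ENSMUSG00000010755, chr7:143557230-143600090, minus strand), for cysteine, measured 79.6, 84.4 and 90.4 and 173, 181 and 195 CPM (log2 fold change 1.11 ± 0.23, edgeR adjusted p = 0.0162). For tyrosine, Yars (ENSMUSG00000028811, chr4:129189760-129219607, plus strand) measured 123, 114 and 111 and 218, 225 and 242 CPM (log2 fold change 0.98 ± 0.20, edgeR adjusted p = 0.0153). Aars (ENSMUSG00000031960, chr8:111033144-111057664, plus strand), for alanine, measured 181, 176 and 208 and 376, 382 and 409.5 CPM (log2 fold change 1.05 ± 0.26, edgeR adjusted p = 0.033). In all 4 the lowest doxycycline library exceeded the highest control. Nars, for asparagine, had a similar size of difference but did not pass (log2 fold change 0.80 ± 0.23, edgeR adjusted p = 0.0516), and log2 fold changes were 0.58 for Iars, 0.50 for Tars, 0.37 for Gars, 0.23 for Eprs, 0.05 for the tRNA exporter gene Xpot and −0.07 for Wars. The median was 0.58 over these 11 genes. Over 10 other cytosolic tRNA ligases, which are not among the genes studied, it was 0.01, and over 17 mitochondrial ligases −0.01. By edgeR 0 were called in either list, with 3 and 1 at an unadjusted p under 0.05. Among the 10, log2 fold changes ran from −0.23 to 0.71. In 4 of them every doxycycline library lay above every control, and in 0 below.

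Around these genes, a further 18 genes of the eIF2 kinases, eIF2, its exchange factor and its phosphatase, of which 17 were tested, held 3 that rose in bone marrow and 0 that fell, with a median log2 fold change of 0.34. They were Eif2ak1, the haem-regulated kinase, with 141, 132 and 156 CPM in controls and 339, 361 and 389.7 CPM with doxycycline (log2 fold change 1.34 ± 0.33, edgeR adjusted p = 0.0315), Eif2ak4, the amino acid-sensing kinase (log2 fold change 0.63 ± 0.17), and the exchange factor subunit gene Eif2b4 (0.58 ± 0.13). The kinase of the endoplasmic reticulum, Eif2ak3, had −0.30 ± 0.23 and did not pass. Of 16 tested further targets of ATF4, 3 rose, the transporters Slc1a4 and Slc6a9 and the autophagy receptor gene Sqstm1, and 0 fell (median 0.15). Among 14 genes of the unfolded protein response of the endoplasmic reticulum, Xbp1 rose, Dnajc3 and Edem1 fell, and the median was −0.32. None of 11 genes of the mitochondrial unfolded protein response was called by edgeR, and 1 had an unadjusted p under 0.05.

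Markers of erythroid cells, megakaryocytes and neutrophils differed between the same groups. Whether other cells or the sorted leukaemia cells themselves carried these markers cannot be told apart in such libraries. Of 17 tested erythroid markers 13 rose, their summed level being 3876 to 6391 CPM in controls and 52848 to 65439 CPM with doxycycline, and 7 megakaryocyte markers, of which 2 of 4 tested fell (Gp1bb and Treml1), summed to 351 to 431 CPM in controls and 79.4 to 111 CPM with doxycycline. The 9 neutrophil markers, of which edgeR called 0 and 0 had an unadjusted p under 0.05, summed to 831 to 1252 CPM in controls and 305.7 to 623 CPM with doxycycline. With the log2 level of Alas2 added to the model, 0 of the 37 genes and 0 of all 14435 genes were called by edgeR, 5 of the 37 had an unadjusted p under 0.05, and the median over the 37 was 0.00. Because Alas2 did not overlap between the 2 groups, the erythroid level and the treatment cannot be told apart in bone marrow. The part of the megakaryocyte and neutrophil markers was not tested. Leaving out any 1 of the 6 bone marrow libraries left between 1 and 6 genes called, so the count of 13 depends on having all 6. The 1 was Atf5, without control replicate 2, where 0.134% of all genes were higher. Without any other of the 6, 0.665 to 1.05% of all genes were called higher, so calls fell over the whole table. The model also draws its spread from the other groups: leaving out secondary disease replicate 4 gave 21 that rose (9.06% of all genes higher).

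**Figure D2:**
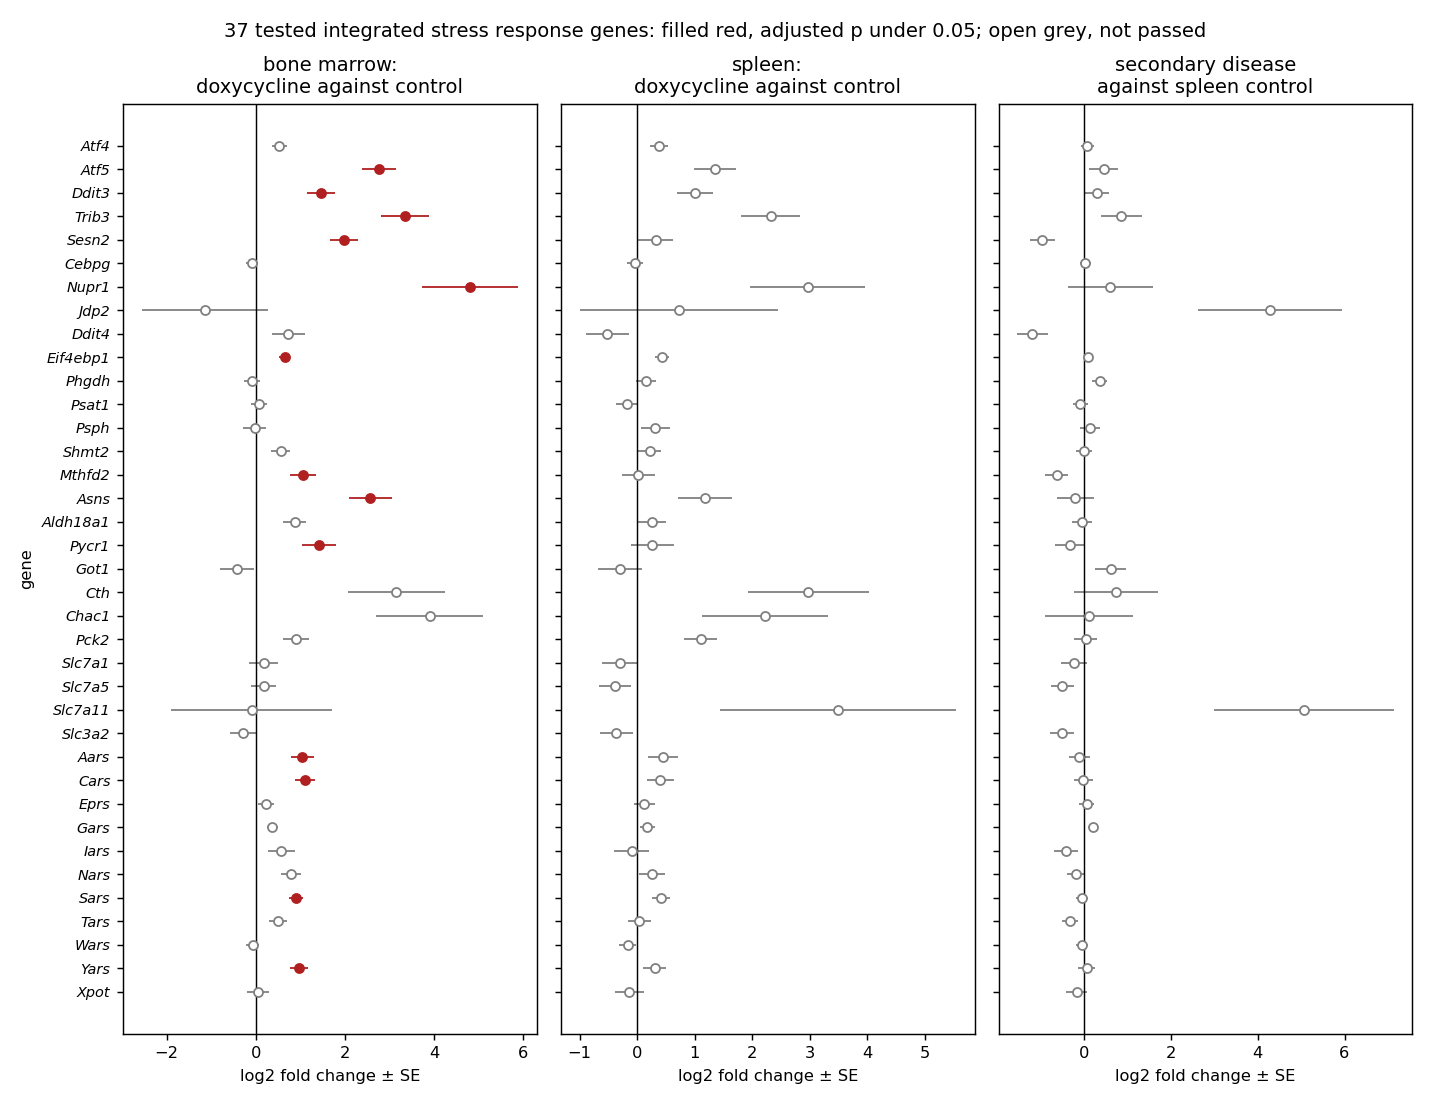
Log2 fold change (x axis, bars: ± SE of the fit) of the 37 tested genes (y axis) in 3 comparisons, red and filled where the adjusted p was under 0.05. In bone marrow 13 points are red, all to the right of 0, and in the other 2 panels none is.

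In the spleen the same 7 days of doxycycline gave a less uniform picture, and the 3 doxycycline libraries differed among themselves. By edgeR 0 of the 37 genes were called (background 0.568% of all genes higher and 0.173% lower), 10 had an unadjusted p under 0.05, DESeq2 called 6 higher (Atf5, Cth, Ddit3, Eif4ebp1, Pck2, Trib3, with 3.48% of all genes) and limma-voom 0. The median log2 fold change was 0.26, with 0.02 over all genes. All 3 doxycycline libraries lay above the controls in 6 genes (Atf5, Ddit3, Trib3, Eif4ebp1, Pck2, Sars) and below them in 2 (Got1, Slc7a5), where 9.34% and 10.7% of all genes did so.

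Replicate 2, with the highest Alas2, was above every spleen control in 29 of the 37 genes and below in 5. Replicate 3 was above in 20 and below in 16, and replicate 1, with Alas2 near the controls, above in 10 and below in 22. In each of these libraries 39.5 to 40.4% of all genes lay above and 39.1 to 41.9% below every control. The 13 genes that had risen in bone marrow were all above the spleen controls in replicate 2, while in replicate 3 there were 8 above and 5 below, and in replicate 1 there were 5 above and 8 below. The 5 above in replicate 1 were Atf5, Ddit3, Trib3, Eif4ebp1 and Sars.

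**Figure D3:**
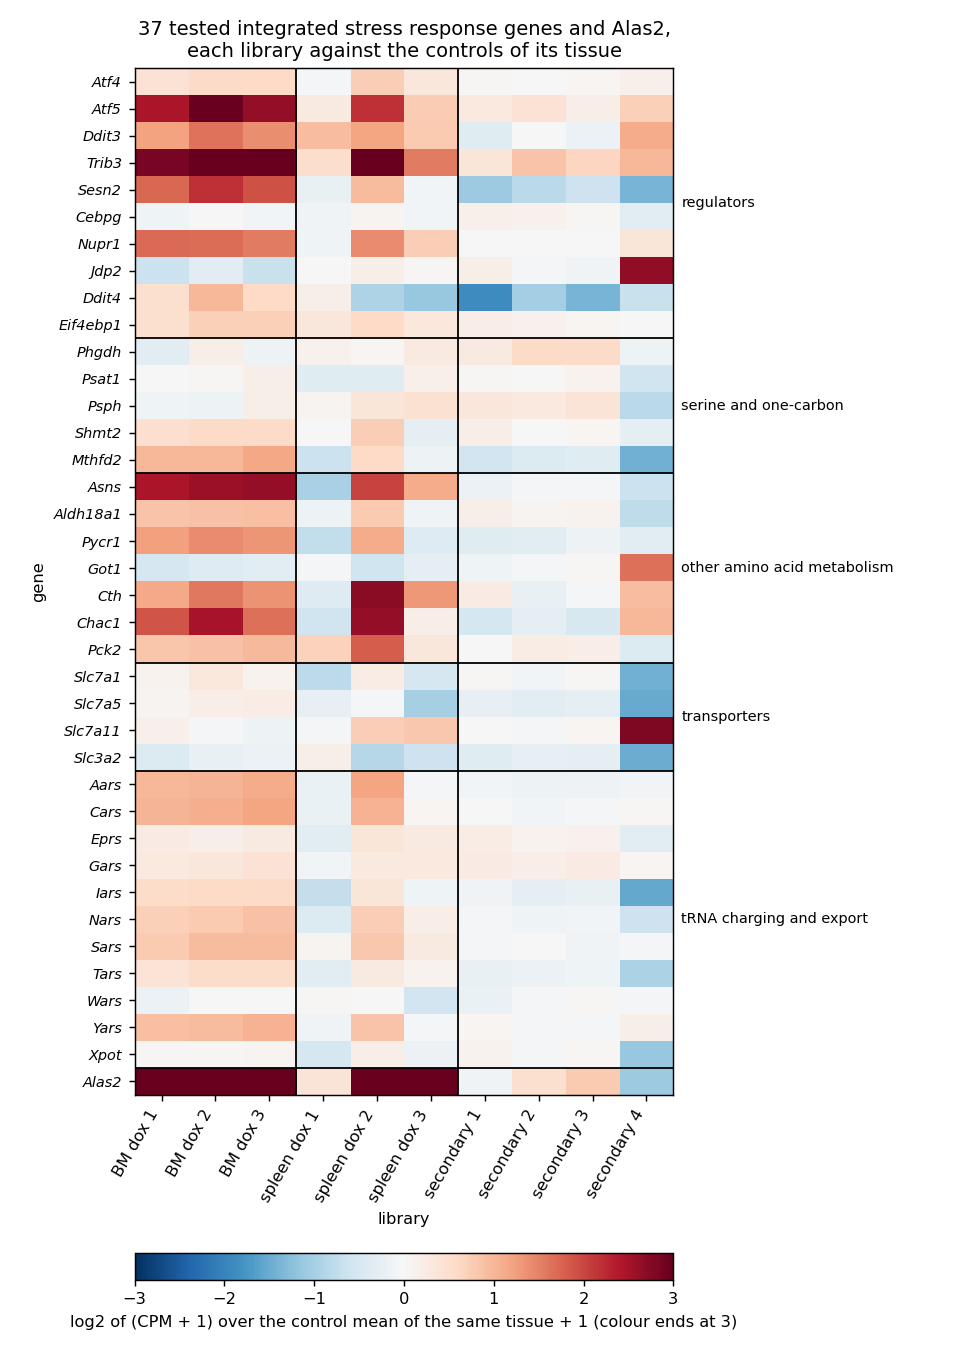
Colour gives log2 of (CPM + 1) in each doxycycline or secondary disease library (x axis) over the control mean of the same tissue + 1, for the 37 tested genes by role and Alas2 (y axis). The 3 bone marrow doxycycline columns look alike, spleen doxycycline replicate 2 resembles them, and in replicate 1 22 of the genes lay below every spleen control.

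Trib3 had 4.40, 4.25 and 4.81 CPM in spleen controls and 6.94, 45.6 and 15.1 CPM in doxycycline replicates 1 to 3. Every doxycycline library lay above the controls, replicate 2 the furthest, and the test was narrowly missed (log2 fold change 2.33 ± 0.51, edgeR adjusted p = 0.054). Atf5 had 19.9, 22.0 and 20.5 CPM and 25.4, 99.2 and 35.8 CPM, in the same order (log2 fold change 1.36 ± 0.36, edgeR adjusted p = 0.0991). Ddit3 varied less between the doxycycline libraries than these: 20.1, 24.1 and 22.1 CPM in controls and 42.9, 51.5 and 39.1 CPM with doxycycline, all 3 above the controls including replicate 1 (log2 fold change 1.01 ± 0.32, edgeR adjusted p = 0.158). Eif4ebp1 was likewise above the controls in all 3, with 109, 115 and 117 CPM against 145, 173 and 141 CPM (log2 fold change 0.43 ± 0.12, edgeR adjusted p = 0.112). Pck2 had 49.6, 53.5 and 51.5 CPM against 83.6, 184 and 65.3 CPM (log2 fold change 1.10 ± 0.29, edgeR adjusted p = 0.0918), its highest value in replicate 2. Sars, with 173, 191 and 183 CPM against 192, 318 and 221 CPM, was barely above the controls in replicate 1 (log2 fold change 0.42 ± 0.15, edgeR adjusted p = 0.241).

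Other genes went both ways. Asns, at 239, 238 and 237 CPM in the 3 spleen controls, stood at 121, 978 and 518 CPM with doxycycline, so that replicate 1 was below every spleen control and replicate 2 above every bone marrow doxycycline library (log2 fold change 1.18 ± 0.46, edgeR adjusted p = 0.289). Chac1 stood at 0.880, 0.945 and 0.712 CPM in controls and 0.225, 10.6 and 1.13 CPM with doxycycline, and Nupr1 at 0.176, 0.0859 and 0.0982 and 0.0321, 1.99 and 0.861 CPM. Both were below the controls in replicate 1 and above them in replicates 2 and 3. For Nupr1 the values of the controls and of replicate 1 rest on a few counts each. A small difference in counts thus set its place in replicate 1. Mthfd2 went from 127, 134 and 125 CPM to 81.6, 194 and 115 CPM, Pycr1 from 11.3, 9.11 and 11.2 to 5.94, 24.1 and 7.84 CPM, and Sesn2 from 53.1, 56.1 and 56.3 to 47.0, 108 and 51.9 CPM. These 3 exceeded the controls in replicate 2 alone. Among the tRNA ligases replicate 2 was again highest: Aars had 244, 241 and 248 CPM in controls and 213, 552 and 235 CPM with doxycycline, Cars 108, 113 and 110.5 and 96.9, 228 and 115 CPM, and Yars 156, 146 and 149 and 139, 273 and 145 CPM. Replicate 1 lay below the controls in all 3. Atf4 itself had 269.8, 290.0 and 281 CPM in controls and 272, 468 and 355 CPM with doxycycline (log2 fold change 0.38 ± 0.16, edgeR adjusted p = 0.321), with only replicate 1 inside the control range. Slc3a2 went the other way, with 553, 599.8 and 588 CPM in controls and 659, 322 and 377 CPM with doxycycline, high in replicate 1 and low in the other two.

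Single libraries decided the spleen count. Without doxycycline replicate 1, 9 of the 37 rose (Asns, Atf4, Atf5, Cth, Eif4ebp1, Nupr1, Pck2, Sars, Trib3), where 4.50% of all genes were called higher. Without replicate 2 none was called and the median became −0.08, and leaving out secondary disease replicate 4 gave 5 that rose (3.23% of all genes higher). Of the eIF2 list, the phosphatase subunit gene Ppp1r15a (GADD34), which ends the response, rose in spleen (66.2, 78.6 and 75.8 CPM in controls, 207, 243 and 147 CPM with doxycycline, log2 fold change 1.44 ± 0.23, edgeR adjusted p = 0.0232), and Xbp1 fell by 0.84 on the log2 scale. Ppp1r15a was not called in bone marrow. By edgeR it was lower in spleen control than in bone marrow control, as were 0.111% of all genes. It was also lower in secondary disease than in spleen doxycycline, as were 0.707% of all genes. In replicate 2 the progenitor marker sum was 553.8 CPM and the erythroid marker sum 94899 CPM, against 2604 to 2711 and 4508 to 6789 CPM in the spleen controls. The part of these in the result was not tested.

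The doxycycline effects of the 2 tissues were compared directly as spleen effect minus bone marrow effect. The estimate was below 0 in 30 of the 37 genes, among them all 11 of tRNA charging and export, with a median of −0.47 against 0.05 over all genes. No gene of the 37 was called by edgeR (0.0277% of all genes higher, 0.0208% lower) or limma-voom, 8 had an unadjusted p under 0.05, and DESeq2 called Sesn2 lower (0.921% of all genes). Sesn2 had −1.66 ± 0.43 (edgeR adjusted p = 0.201), Atf5 −1.40 ± 0.51 and Asns −1.39 ± 0.65, while Atf4 had −0.15 ± 0.22, Pck2 0.20 ± 0.41 and Ddit3 −0.45 ± 0.45. Without spleen doxycycline replicate 2, 10 were called lower (Aars, Asns, Atf5, Cars, Mthfd2, Pycr1, Sars, Sesn2, Trib3, Yars), where 1.58% of all genes were called lower.

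Without doxycycline, 32 of the 37 genes had a higher mean in spleen than in bone marrow leukaemia cells, by small amounts (median log2 fold change 0.24, −0.01 over all genes). In 20 genes the spleen controls all lay above the bone marrow controls and in 3 below (Jdp2, Pck2, Slc7a11), against 16.3% and 16.5% of all genes. By edgeR, DESeq2 and limma-voom 0 were called (0.0762% of all genes higher and 0.111% lower by edgeR), and 4 had an unadjusted p under 0.05. With only these 2 groups in the model 14 rose and 2 fell (7.30% of all genes higher and 7.38% lower). Mthfd2, for example, stood at 70.2 ± 2.80 CPM (SD, n = 3) in bone marrow and 128 ± 4.55 in spleen, Sesn2 at 31.5 ± 9.30 and 55.2 ± 1.76, and Asns at 152 ± 20.2 and 238 ± 1.07. Of the 11 tRNA genes, 10 were separated in this way. The neutrophil markers summed to 831 to 1252 CPM in bone marrow and 51.5 to 159.4 CPM in spleen controls, and their part in this difference was not tested.

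In secondary disease, taken under continued doxycycline, the genes as a group stood near the spleen controls. The median log2 fold change over the 37 was −0.01, and by edgeR 0 were called (0.748% of all genes higher, 1.28% lower). Of the 37, 5 had an unadjusted p under 0.05, DESeq2 called Ddit4 and Sesn2 lower (2.81% of all genes), and limma-voom called 0. All 4 libraries lay above the controls for Atf5 and Trib3 and below them for 9 genes (Sesn2, Ddit4, Mthfd2, Asns, Slc7a5, Slc3a2, Aars, Iars, Tars), where 8.85% and 12.4% of all genes did so.

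Atf4 had 289, 284, 293 and 311 CPM in the 4 libraries, 2 inside the range of the controls and 2 above it (log2 fold change 0.07 ± 0.15, edgeR adjusted p = 0.897). Trib3, with 6.04, 8.95, 7.53 and 9.97 CPM, and Atf5, with 25.5, 28.7, 24.2 and 34.8 CPM, stayed above the controls. Trib3 had a log2 fold change of 0.85 ± 0.47 (edgeR adjusted p = 0.436). Asns, with 210.0, 228, 228 and 153 CPM, and Aars, with 230.1, 221, 220.1 and 229.6 CPM, were below the controls. Ddit3 had 16.9, 22.0, 19.5 and 49.4 CPM, within the control range or below it except in replicate 4. Chac1, at 0.290, 0.508, 0.312 and 2.69 CPM, also had its 1 high value in replicate 4. Both inhibitors of mTORC1 were lower: Sesn2 had 25.5, 31.0, 35.3 and 20.4 CPM (log2 fold change −0.97 ± 0.28, edgeR adjusted p = 0.108), and Ddit4, at 62.3, 69.8 and 72.8 CPM in controls, had 17.6, 33.3, 25.6 and 42.8 CPM (log2 fold change −1.20 ± 0.35, edgeR adjusted p = 0.107). Both were below the controls in 4 of 4 libraries, and without replicate 4 Ddit4 fell by the test, as did 2.52% of all genes. The values of the other risen genes of bone marrow were 0.124, 0.117, 0.117 and 0.434 CPM for Nupr1, 129, 125, 118 and 112 for Eif4ebp1, 86.3, 96.2, 99.6 and 46.5 for Mthfd2 and 8.03, 8.05, 9.29 and 8.07 for Pycr1. For the ligases they were 110.4, 104, 107 and 114 CPM for Cars, 177, 179.6, 169 and 178 for Sars and 158, 148, 146 and 171 for Yars, and Pck2 had 51.4, 60.1, 59.5 and 38.4 CPM. Each of these 8 was below every bone marrow doxycycline library, and for Eif4ebp1, Mthfd2 and Pck2 replicate 4 was the lowest.

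Set against the spleens at 7 days of doxycycline, secondary disease had lower means in 28 of the 37 genes (median −0.33). Sesn2 fell (log2 fold change −1.30 ± 0.28, edgeR adjusted p = 0.0485), as did 0.707% of all genes (0.222% rose), and the other 36 did not pass. All 4 libraries lay below all 3 doxycycline libraries in Sesn2, Eif4ebp1, Pck2 and Sars, and 4.16% of all genes did so. In 0 of the 37 all 4 lay above them, against 3.08% of all genes. The calls turned on single libraries: without spleen doxycycline replicate 1, 13 fell (4.91% of all genes), and without replicate 3, 2 (2.23%). Without replicate 2, or without secondary disease replicate 1, 2 or 3, 0 were called, and without secondary disease replicate 4, 2 were (2.96% of all genes lower). With DESeq2 size factors in the edgeR fit, with limma-voom, with no filter on low counts or with only these groups in the model, 0 were called, and DESeq2 called 6 lower (3.73% of all genes). The summed erythroid markers were 5741 to 8616 CPM in secondary disease and 7294, 94899 and 43825 CPM in spleen doxycycline, and 6 of 17 erythroid markers fell. This comparison and the one of spleen doxycycline with its controls share the spleen doxycycline libraries, and those with spleen control share the controls.

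Whether the rises followed the erythroid rise was asked within the groups, by a model with a mean per group and 1 slope on the log2 level of Alas2. The slope is the log2 change of a gene for each doubling of Alas2, and Alas2 varied most within spleen doxycycline, from 56.5 to 1056 CPM. Of the 37 genes 6 had a positive slope by edgeR and 0 a negative one, against 3.45% and 2.63% of all genes, and the estimate was above 0 in 30 of 37 (median 0.13). The 6 were Asns (0.50 ± 0.11, adjusted p = 0.0272), Trib3 (0.45 ± 0.11, adjusted p = 0.0384), Sesn2 (0.27 ± 0.07), Iars (0.27 ± 0.07), Mthfd2 (0.26 ± 0.06) and Nars (0.20 ± 0.05). Slopes of Atf5 (0.28 ± 0.09), Atf4 (0.10 ± 0.04) and the ligase genes Aars (0.21 ± 0.06) and Cars (0.18 ± 0.06) were positive and not called. Ddit3 had −0.08 ± 0.10 and Eif4ebp1 0.04 ± 0.04.

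In the 3 spleen doxycycline libraries taken alone, 24 of the 37 genes had the order of Alas2, replicate 1 lowest and replicate 2 highest, as did 21.8% of all genes. Replicate 2 was the highest in 29 of the 37, and in 35% of all genes. Eif2ak1 had the same order, with 143, 146 and 145 CPM in spleen controls and 128, 498 and 262 CPM with doxycycline, and its slope was 0.36 ± 0.05 (edgeR adjusted p = 0.00673). Asns, Sesn2, Mthfd2, Iars, Nars and Eif2ak1 were below the controls in replicate 1, where Alas2 was just above them. Trib3, whose slope was also called, was above the controls there, as were Atf5, Ddit3, Eif4ebp1, Sars and Pck2, whose slopes were not. The called slopes depend on single libraries. Without spleen doxycycline replicate 1, or without replicate 2, 0 of the 37 were called by edgeR, with 12 and 9 at an unadjusted p under 0.05, while without replicate 3 the test called 12 (5.77% of all genes). Without secondary disease replicate 4, 16 slopes were called positive and 1 negative (8.19% and 6.69% of all genes). The count was 1, near the share of all genes, without bone marrow doxycycline replicate 1, 2 or 3 (1.79%, 1.79% and 1.70% of all genes), secondary disease replicate 2 (1.84%) or spleen control replicate 3 (1.45%). It was 2 without secondary disease replicate 3 (1.69%) or spleen control replicate 2 (1.96%), and 3 without bone marrow control replicate 1 (1.80%). The progenitor sum was lowest in the library with the highest Alas2, as was the megakaryocyte sum (790.3, 24.4 and 325 CPM in spleen doxycycline replicates 1 to 3), and their part in the slopes was not tested.

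**Figure D4:**
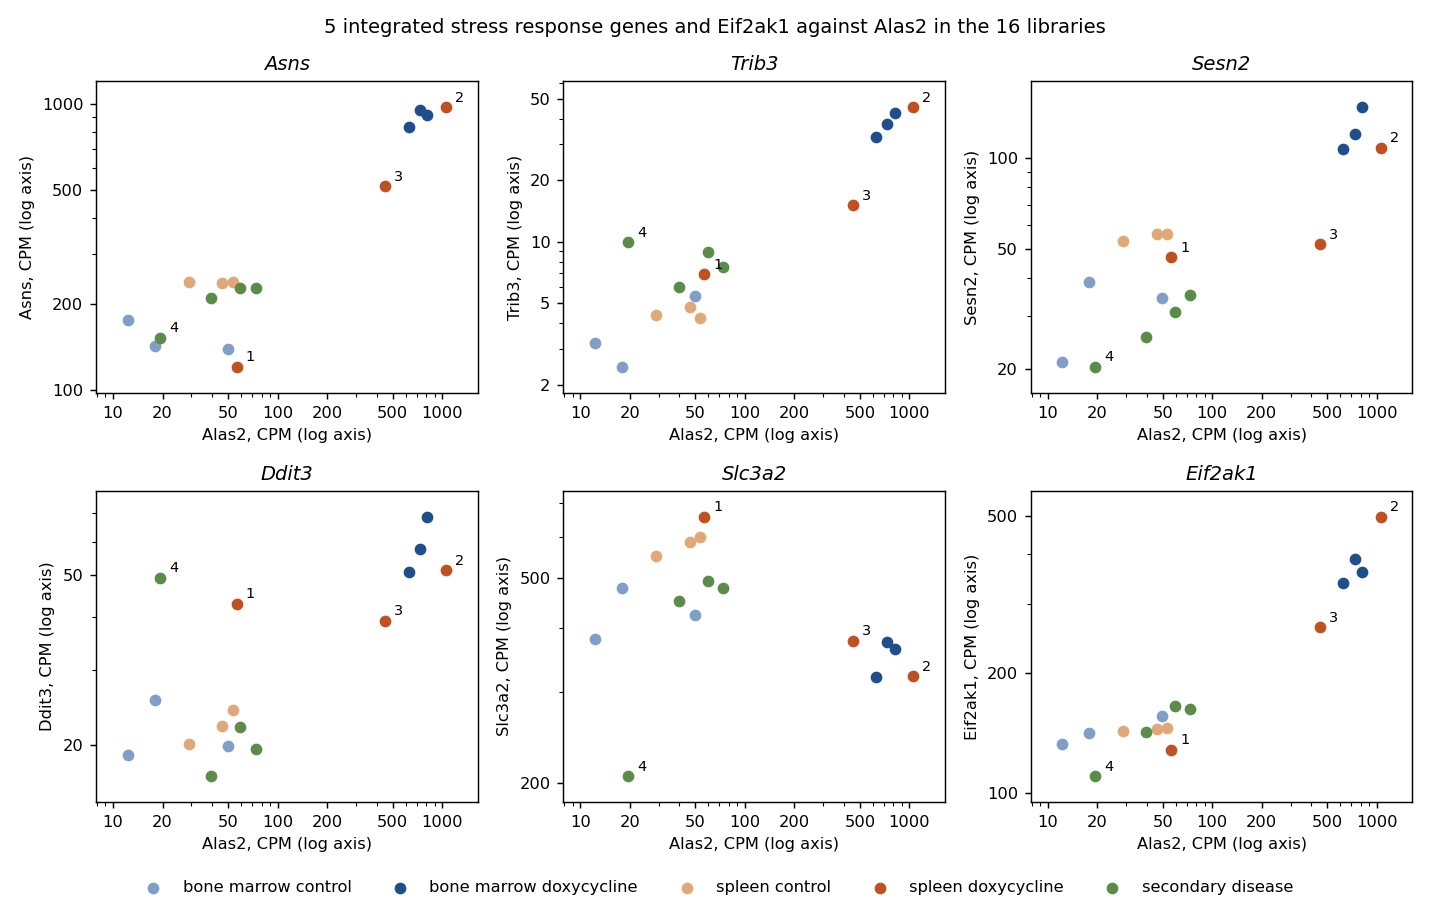
CPM of 5 integrated stress response genes and of Eif2ak1 (y axes, log) against CPM of Alas2 (x axes, log) in the 16 libraries, coloured by group, with numbers at spleen doxycycline replicates 1 to 3 and secondary disease replicate 4. Asns, Trib3 and Eif2ak1 are high in bone marrow doxycycline and in spleen doxycycline replicates 2 and 3, Ddit3 is also high in 2 libraries with low Alas2, and Slc3a2 is low in secondary disease replicate 4.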

How the data were processed

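Per the labels' protocols, RNA was extracted with TRIzol and libraries were made from poly(A) RNA (NEBNext Ultra II RNA). The tools listed in the submitters' processing notes are STAR, RSEM, Trim Galore, MultiQC and FastQC, no version being stated, and the build is GRCm38. Whether counting used strand was not given in the sources used here. The authors deposited expected counts per gene and library and, separately, TPM values, which were used only to compare levels between genes.

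After rounding, the expected counts were fitted in 1 model over all 16 libraries with edgeR 4.0.16 (filterByExpr, TMM, quasi-likelihood) in R 4.3.3, with p-values adjusted over 14435 genes. Log2 fold changes carry the SE |log2 fold change|/√F. The slope on Alas2 used log2 CPM with a prior count of 2. Limma 3.58.1 (voom) and DESeq2 1.42.0 were alternatives, with other filters, scalings and left-out libraries. The code was tested on simulated data. Gene positions are from GENCODE M21 (GRCm38) and promoters from RefSeq (GRCm38.p6). Per-library values are given for the genes that rose in bone marrow and for Atf4, Ddit3, Asns and Chac1, and other genes by role. The genes and lists were chosen with earlier results of these data known. Same-numbered libraries, pooled over all pairs of groups, did not deviate together, so numbers were not used as pairs. Whether bone marrow and spleen came from the same mice was not given in the sources used here. The comparisons between tissues treat them as separate.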

Additional observations from a re-analysis of the deposited data

Results flagged for a closer look

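Of the 43 genes, 19 had 1 library of the 4 in secondary disease whose gap to the nearest other exceeded Dixon's 95% critical value for 4 samples. Chance flags about 1 in 20 groups (5%) where values are normally spread. That share does not hold for genes at or near 0 in the other libraries, such as Vldlr and Stc2, where a few counts are enough. In 18 of the 19 the library was replicate 4, which had the lowest total (12.26 M) and the highest macrophage marker sum (137.7 CPM). The part of these in the values was not tested. Replicate 4 also stood apart over all genes tested, with 41.8% above and 49.8% below every spleen control. The other secondary disease libraries had 33.2 to 35.9% above and 34.6 to 36.8% below. How many of all genes the rule flags was not counted, so the 19 cannot be called particular to these genes.

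It was the highest library for 11 genes. Ddit3 stood at 49.4 CPM there, against 16.9 to 22.0 in the other 3. The low-expressed genes that were high in it were Nupr1 at 0.434 CPM, Jdp2 at 5.72, Aldh1l2 at 3.30, Chac1 at 2.69, Slc7a3 at 5.64, Slc7a11 at 6.16, Vldlr at 17.6, Stc2 at 0.173 and Gdf15 at 4.86. The aspartate aminotransferase gene Got1 was also high, at 184 CPM. Replicate 4 was the lowest library for 7 genes, Slc3a2 at 206 CPM, Slc7a5 at 216, Slc7a1 at 70.2, Tars at 104, Aldh18a1 at 103, Iars at 82.2 and Psph at 15.1. The remaining one was Pycr1, highest in replicate 3 at 9.29 CPM.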

How the results depend on the processing

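Counts of called genes out of the 37 depended on the model, and so did the share of all genes called in the same direction, given in brackets. In bone marrow (13 called, 3.96% higher) they were 20 with DESeq2 (7.67%), 24 with only the groups compared (23 higher, 17.9%, and 1 lower, 18.6%) and 21 without the fourth secondary disease library (9.06%). Bone marrow counts were 0 with Alas2 as covariate and 1 to 6 when 1 library was left out (0.134 to 1.05%). In spleen (0) they were 6 with DESeq2 (3.48%), 5 without the fourth secondary disease library (3.23%) and 0 to 9 when 1 library was left out. For the tissue difference (0) DESeq2 gave 1 (0.921%) and leaving out 1 library 0 to 10. For spleen against bone marrow controls (0) only the groups compared gave 16 (7.30% higher, 7.38% lower) and leaving out the fourth secondary disease library 1 (0.869%). For secondary disease against spleen control (0) DESeq2 gave 2 (2.81%), only the groups compared 1 (1.97%), and leaving out 1 library 0 to 1. Against spleen doxycycline (1) DESeq2 gave 6 (3.73%), DESeq2 size factors, limma-voom, no filter and only the groups compared each 0, and leaving out 1 library 0 to 13. For the slope (6, 3.45%) DESeq2 gave 19 (9.88%), limma-voom 11 (5.35%), Slc4a1 in place of Alas2 13 (7.32%), and leaving out 1 library 0 to 17.

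Over all pairs of libraries from different groups, same-numbered ones had a median correlation of −0.0562 and different ones 0.0326. Of the 16 libraries, 4 correlated best with their own number. These pairs include control with doxycycline mice. Only bone marrow and spleen under the same treatment could share a mouse. Their same-numbered pairs had −0.108, 0.0654 and 0.17 in controls and −0.113, 0.0368 and 0.0977 with doxycycline. The check therefore cannot tell whether these tissues shared mice. With a replicate block the counts were 19 in bone marrow (7.50% of all genes), 2 in spleen (1.5%) and 14 for the slope (6.95%). They were 0 for the tissue difference, 0 between controls, 0 for secondary disease against spleen control and 1 against spleen doxycycline (1.24%). The block gives secondary disease replicate 4, the only library with that number, a term of its own. That library is then fitted exactly, so these counts also reflect its removal.

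Directions turned as follows. With Alas2 as covariate the bone marrow log2 fold changes became −0.15 for Aldh18a1, −0.031 for Asns, −0.64 for Cth, 0.85 for Got1, −0.26 for Mthfd2, −0.23 for Nars, −0.15 for Pck2, −0.13 for Pycr1, −0.052 for Shmt2 and 0.14 for Slc3a2. In spleen they became −0.23 for Aars, −0.66 for Asns, −0.17 for Cars, −0.45 for Chac1, −0.16 for Cth, −0.81 for Mthfd2, −0.16 for Nupr1, −0.82 for Pycr1, −0.51 for Sesn2 and −0.038 for Yars. Leaving out 1 library, the spleen values ran from −0.12 to 0.69 for Aars, −0.0631 to 0.63 for Cars, −0.33 to 2.79 for Chac1, −0.38 to 0.27 for Mthfd2, −0.61 to 0.60 for Pycr1, −0.16 to 0.54 for Sesn2 and −0.078 to 0.47 for Yars, lowest without spleen doxycycline replicate 2 and highest without replicate 1. Mthfd2 in spleen was −0.0700 with limma-voom, −0.022 with the block and −0.015 without spleen control replicate 3, and Pycr1 −0.055 with limma-voom. The slope of Chac1 ranged from −0.24 without spleen doxycycline replicate 1 to 1.13 without secondary disease replicate 4, that of Ddit3 from −0.22 to 0.054 without the same libraries, and the latter was 0.044 with the block and 0.055 with summed globin. The cause was not tested. Genes at a few counts per library, such as Nupr1, Chac1 and Cth, are limited by depth.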
